A study of Rattus norvegicus with 16 samples.

Results

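The genes described here are 10 direct transcriptional targets of p53: Cdkn1a, Btg2, Plk2, Mdm2, Ccng1, Bax, Pmaip1, Phlda3, Gdf15 and Sesn2. Every probe whose gene name in the array files equals one of these symbols was taken, which gave 13 of 45598 probes, with 2 each for Cdkn1a, Bax and Pmaip1. All 10 genes were among the 16024 genes tested. Of the 13 probes, 12 passed the filter, which asked for a signal well above background throughout some group; the exception was the second probe of Pmaip1, which was below background on all 16 arrays. The study compared kidney cortex of male Jcl:SD rats carrying 1 mutant BRCA1 allele (BRCA1+/-) with that of wild-type rats, after intraperitoneal ferric nitrilotriacetate (Fe-NTA), a chelated form of iron that injures proximal tubule cells by oxidation, or without treatment. Each genotype gave 3 arrays after 1 week of Fe-NTA, 3 after 3 weeks and 2 from untreated rats. Injections began at 4 weeks of age: rats received 5 mg iron/kg in the first 2 and 7 mg iron/kg in the other 3 injections of week 1, and the 3-week groups then received 10 mg iron/kg in each of 5 weekly injections for the remaining weeks. Sampling followed the final injection by 48 h. No age, vehicle or sampling time is given for the untreated rats, so treatment and age cannot be told apart, nor can time, dose and age between 3 weeks and 1 week. At the outset there were 18 BRCA1+/- and 17 wild-type rats. The labels do not say that each array is a separate animal, so the p-values measure the spread between these samples.

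The transcription factor p53 is stabilised after DNA damage and other stress and binds a pair of decameric half-sites near its targets. Some targets stop the cell cycle: Cdkn1a encodes the cyclin-dependent kinase inhibitor p21, Btg2 an antiproliferative partner of the deadenylase complex, and Plk2 a polo-like kinase of the centriole cycle. Mdm2, the ubiquitin ligase that degrades p53, and Ccng1, cyclin G1, act back on p53 itself. Bax and Pmaip1 (NOXA) belong to the BCL2 family and promote mitochondrial cell death, and Phlda3 restrains the survival kinase AKT. Gdf15, a secreted stress cytokine, and Sesn2, a sestrin that restrains mTORC1, also respond to other stress pathways, including the ATF4 pathway. In the kidney, p21 is known as a gene that tubular cells switch on after acute injury.

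The stretches upstream of 3 of these genes are printed because they set side by side a target that rose, a target that did not and a target that rose without a p53 site in the window. They come from the RefSeq promoter table of build GRCr8, which holds 250 bases before to 50 after each annotated start, and 9 of the 10 genes had an entry. Each run gives the 250 bases before the start, 5′ to 3′ on the gene's strand. Capitals mark a p53 site of 20 bases (2 adjoining half-sites) with at most 1 mismatch, and in Plk2 the octamer TGACGTCA, a cyclic AMP response element that ATF and CREB factors bind. The Cdkn1a stretch is chr20:7150682-7150931 on the + strand, the Ccng1 stretch is chr10:25684877-25685126 on the - strand, and the Plk2 stretch is chr2:43702286-43702535 on the + strand.
Cdkn1a: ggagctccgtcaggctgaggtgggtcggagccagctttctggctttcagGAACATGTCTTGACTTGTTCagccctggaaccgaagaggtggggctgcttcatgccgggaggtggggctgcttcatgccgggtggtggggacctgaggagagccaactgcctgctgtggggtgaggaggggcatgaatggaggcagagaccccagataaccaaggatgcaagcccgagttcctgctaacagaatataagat
Ccng1: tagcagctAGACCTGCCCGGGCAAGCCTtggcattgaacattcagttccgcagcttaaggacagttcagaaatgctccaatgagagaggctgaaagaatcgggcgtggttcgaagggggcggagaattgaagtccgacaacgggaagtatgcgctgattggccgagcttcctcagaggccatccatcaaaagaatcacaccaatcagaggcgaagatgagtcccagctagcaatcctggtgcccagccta
Plk2: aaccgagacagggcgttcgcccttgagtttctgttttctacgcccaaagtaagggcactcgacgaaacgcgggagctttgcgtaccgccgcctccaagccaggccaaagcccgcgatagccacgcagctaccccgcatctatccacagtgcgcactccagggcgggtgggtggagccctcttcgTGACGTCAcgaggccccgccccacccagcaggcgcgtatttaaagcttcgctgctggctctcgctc
Cdkn1a carried the site GAACATGTCTTGACTTGTTC at -201 to -182 from its start, and Ccng1 carried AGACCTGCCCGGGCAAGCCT at -242 to -223, each with 1 mismatch to the p53 consensus. A site at least this close occurred in 24 of 33469 promoters of the same length (0.0717%), and none matched at all 20 bases. The best match in the same windows had 3 mismatches in Pmaip1, 4 in Btg2 and Phlda3, 5 in Mdm2 and Sesn2 and 6 in Plk2; 6.18% of all promoters hold a match with at most 3 mismatches and 29.7% one with at most 4. Gdf15 has 2 annotated starts, whose best matches had 4 and 5 mismatches. TGACGTCA occurred in Plk2 at -66 and in Btg2 at -201, and in 1.83% of all promoters. Mdm2's known p53 sites lie in its first intron, outside this window. These matches describe letters in a window only.

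Signals are given as log2 of the processed spot signal minus the 75th percentile of that array, so that 0 is the array's 75th percentile and each unit is a doubling; levels are not compared between genes. Changes were tested with limma across all 16024 genes with Benjamini-Hochberg adjustment, and a gene is said to have risen or fallen when its adjusted p was under 0.05. Where a gene was not well above background on any array of 1 group, only a bound on the fold is printed ("at least"). Dim arrays of the other group keep their reading in it, so the bound is not strict where there are any. The share of probes well above background ran from 32.8% to 60.5% between arrays, and replicates within a group correlated at Pearson's r of 0.91 to 0.98 across genes. The third wild-type 1-week array stood apart, at 0.91 with both others of its group, while all other pairs reached at least 0.96. Without it the wild-type 1-week comparison called 6 of the 10 genes in place of 5, adding Sesn2, and called 5354 of all genes in place of 4343. Brca1 itself was not called different between BRCA1+/- and wild-type untreated cortex (at least 1.16-fold higher, adjusted p = 0.999; no untreated wild-type array and 1 BRCA1+/- array were well above background), and its 2 untreated BRCA1+/- arrays read -0.04 and -3.44, against -3.31 and -2.70 in untreated wild type.

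Cortex markers were present and shifted with treatment, and their part in the results below was not tested. The summed signal of 8 proximal tubule markers ran from 183 to 458 after 1 week and 375 to 727 after 3 weeks in BRCA1+/- rats, against 919 to 1363 untreated, in units of the array's 75th percentile. In wild type it ran from 53.6 to 156 after 1 week and 520 to 692 after 3 weeks, against 1165 to 1479 untreated. All 8 were tested. At 1 week 3 fell in BRCA1+/- and 7 in wild type, where 3.2% and 14.3% of all genes were called lower. At 3 weeks 2 fell in each genotype, where 6.52% and 5.53% of all genes were called lower in BRCA1+/- and wild type. Cubn rose at 3 weeks in wild type (0.85 ± 0.25, limma, adjusted p = 0.034). The 5 tested macrophage markers summed to 18.7 to 59.7 in all BRCA1+/- Fe-NTA arrays, against 7.53 to 8.86 untreated, and to 19.1 to 51.0 in wild-type Fe-NTA arrays, against 7.40 to 9.48 untreated. The 4 fibroblast markers summed to 26.4 to 72.5 against 12.0 to 14.8 in BRCA1+/- and to 27.7 to 66.8 against 9.40 to 9.81 in wild type. The 5 tested injured tubule markers summed to 216 to 722 in BRCA1+/- Fe-NTA arrays, against 10.3 to 15.3 untreated. In wild type they summed to 273 to 658, against 9.99 to 12.3 untreated. Of these, Havcr1, Lcn2 and Spp1 rose in every comparison with untreated cortex, and Vcam1 and Sox9 in none. Adgre1, a defining macrophage marker, and Krt20, of the injured tubule list, were not above background in enough arrays to be tested. In whole cortex, fewer cells of a type and less RNA per cell cannot be told apart.

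In BRCA1+/- cortex after 1 week of Fe-NTA, Cdkn1a, Plk2, Pmaip1, Phlda3 and Gdf15 rose and Sesn2 fell, 6 of the 10 genes, where 7.45% of all genes tested were called (4.25% higher and 3.2% lower). After 3 weeks Cdkn1a, Plk2, Pmaip1, Phlda3, Gdf15 and Mdm2 rose, 6 of 10 against 15.9% of all genes (9.37% higher and 6.52% lower). In wild-type cortex Cdkn1a, Btg2, Plk2, Pmaip1 and Phlda3 rose after 1 week, 5 of 10 against 27.1% of all genes (12.8% higher and 14.3% lower). After 3 weeks the same 5 genes and Gdf15 rose, 6 of 10 against 14.3% (8.77% higher and 5.53% lower). The 1-week and 3-week comparisons of a genotype share their untreated arrays. Ccng1 and Bax were called in none of the 4 comparisons. Pmaip1 and Phlda3 were well above background on no untreated array, so they passed the filter only through Fe-NTA groups, where they were high.

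**Figure D1:**
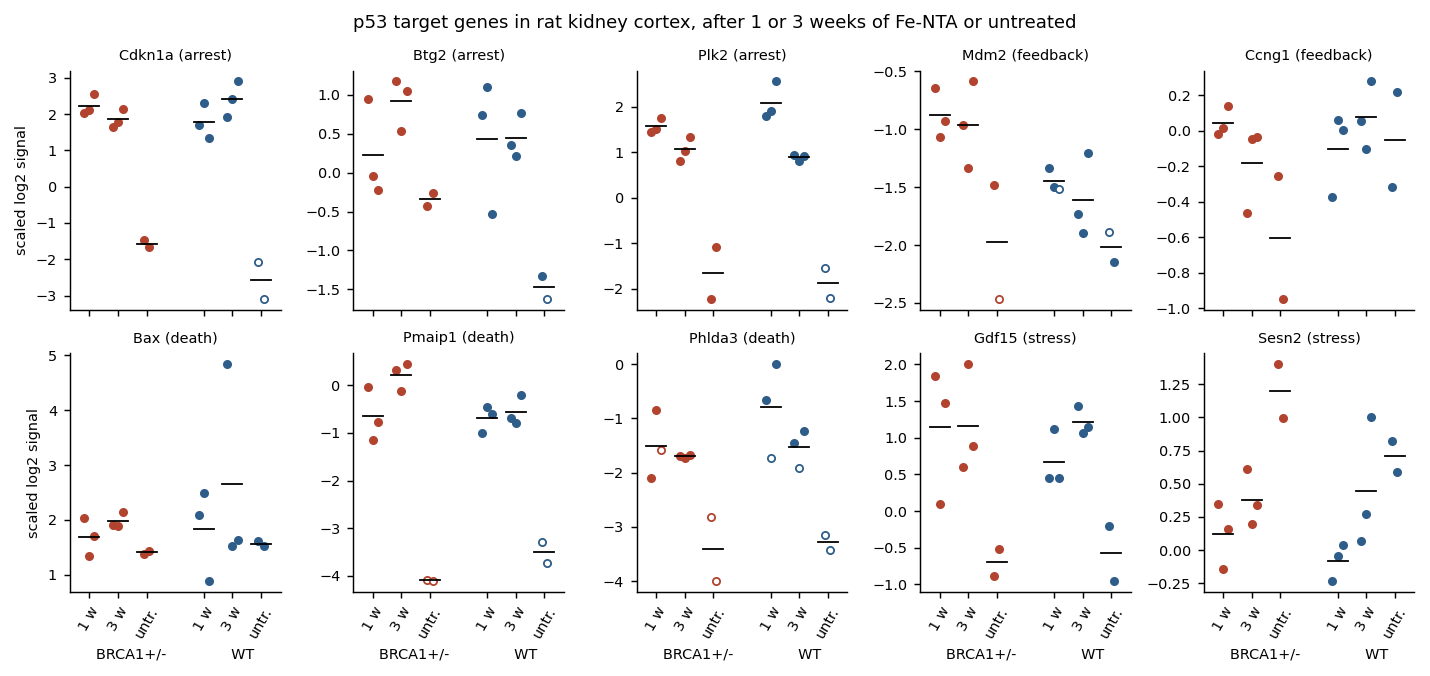
Signal of each of the 10 genes on every array: the y axis is log2 signal relative to the array's 75th percentile, the x axis the Fe-NTA groups (1 w and 3 w are weeks) and the untreated group (untr.) of BRCA1+/- rats (red) and wild-type rats (blue). Each point is 1 array, open where the probe was not well above background, and bars are group means. In Cdkn1a, Plk2 and Pmaip1 every Fe-NTA array lies above every untreated array of its genotype.

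Among the arrest genes, Cdkn1a read 2.04, 2.10 and 2.54 after 1 week and 1.63, 1.78 and 2.14 after 3 weeks of Fe-NTA in BRCA1+/- rats, against -1.47 and -1.66 in untreated BRCA1+/- rats. Wild-type Cdkn1a read 1.70, 2.32 and 1.34 after 1 week and 1.92, 2.42 and 2.90 after 3 weeks, against -2.06 and -3.09 untreated. The Fe-NTA and untreated arrays did not overlap in either genotype, and neither untreated wild-type array was well above background. The log2 fold change in BRCA1+/- was 3.80 ± 0.37 (SE) at 1 week, a 13.9-fold rise with a 95% interval of 8.01 to 24.1 (limma, adjusted p = 6.62e-05). At 3 weeks it was 3.42 ± 0.37, or 10.7-fold with an interval of 6.18 to 18.6 (adjusted p = 6.06e-05). In wild type Cdkn1a was at least 13.4-fold higher at 1 week (adjusted p = 3.84e-06) and at least 20.7-fold higher at 3 weeks (adjusted p = 2.88e-06). The wild-type 3-week call was missed in slide 2 alone (adjusted p = 0.058).

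Both Cdkn1a probes were called in all 4 comparisons with untreated cortex. The one used above, A_44_P914438, lies at chr20:7386596-7386655 in the rn4 coordinates of the array files and is spotted 10 times per array. The other, A_44_P515275, at chr20:7385506-7385565, is spotted once and was dimmer, between -2.68 and -0.21 on the 12 Fe-NTA arrays and between -4.42 and -2.78 on the 4 untreated arrays. Tested on its own it rose in BRCA1+/- (adjusted p = 0.000593 and 0.00527 at 1 and 3 weeks) and in wild type (adjusted p = 0.0042 and 0.00845). No untreated array was well above background on it, so no size of change is given and the genotypes are not ranked on it. It passed the filter only through Fe-NTA groups, where it was high, so its calls are not separate support for the rise.

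Plk2 read 1.44, 1.52 and 1.76 after 1 week and 0.81, 1.03 and 1.34 after 3 weeks in BRCA1+/- rats, against -2.23 and -1.09 untreated. Wild-type Plk2 read 1.81, 1.90 and 2.56 after 1 week and 0.94, 0.80 and 0.92 after 3 weeks, against -1.56 and -2.21 untreated. Every Fe-NTA array exceeded every untreated one, and neither untreated wild-type array was well above background. Plk2 rose 9.38-fold at 1 week (log2 3.23 ± 0.34, adjusted p = 0.000126) and 6.57-fold at 3 weeks (2.72 ± 0.34, adjusted p = 0.000185) in BRCA1+/-. Wild-type Plk2 was at least 15.6-fold higher at 1 week (adjusted p = 3.89e-06) and at least 6.82-fold higher at 3 weeks (adjusted p = 0.000203).

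Btg2 read 0.95, -0.05 and -0.23 after 1 week and 1.17, 0.53 and 1.04 after 3 weeks in BRCA1+/-, against -0.42 and -0.26 untreated. Wild-type Btg2 read 0.74, 1.099 and -0.53 after 1 week and 0.36, 0.22 and 0.77 after 3 weeks, against -1.33 and -1.62 untreated. Untreated arrays were lowest in wild type, and in BRCA1+/- the 1-week arrays began just above them. In BRCA1+/- the log2 fold changes were 0.57 ± 0.44 (adjusted p = 0.486) and 1.26 ± 0.44 (adjusted p = 0.0622), neither called. In wild type Btg2 rose 3.76-fold at 1 week (1.91 ± 0.44, adjusted p = 0.00459) and 3.79-fold at 3 weeks (1.92 ± 0.44, adjusted p = 0.00924). Both wild-type calls were lost without the second untreated wild-type array, at 1.76 (adjusted p = 0.0521) and 1.77 (adjusted p = 0.0952), and with normexp background correction, at 0.61 (adjusted p = 0.127) and 0.58 (adjusted p = 0.158).

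**Figure D2:**
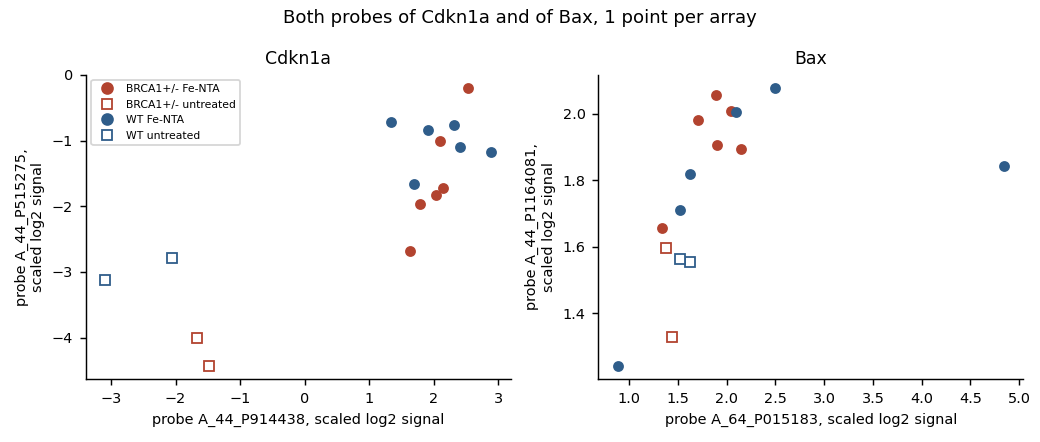
Signal of the 2 probes of Cdkn1a (left) and of Bax (right) on each of the 16 arrays, as log2 relative to the array's 75th percentile; the x axis is the probe used for the gene and the y axis the other probe, with circles for Fe-NTA, squares for untreated, red for BRCA1+/- and blue for wild type. Both Cdkn1a probes place the Fe-NTA arrays above the untreated ones, and 1 wild-type 3-week array at 4.84 stands apart on the Bax probe used and not on the other.

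Of the feedback genes, Mdm2 was called once and Ccng1 not at all. Mdm2 read -0.64, -1.06 and -0.93 after 1 week and -0.96, -1.34 and -0.59 after 3 weeks in BRCA1+/-, against -1.48 and -2.46 untreated. Wild-type Mdm2 read -1.34, -1.50 and -1.52 after 1 week and -1.73, -1.89 and -1.20 after 3 weeks, against -1.88 and -2.15 untreated. In BRCA1+/- no Fe-NTA array overlapped the untreated arrays, while in wild type 1 of the 3-week arrays lay below an untreated one. Mdm2 rose 2.01-fold at 3 weeks in BRCA1+/- (log2 1.01 ± 0.32, 95% interval 0.32 to 1.70, adjusted p = 0.046), a call lost in 9 of 20 refits, with a log2 fold change of 0.19 to 1.50 over them and of 0.52 (adjusted p = 0.436) without the second untreated array. At 1 week it was 1.09 ± 0.32 there and just missed the threshold (adjusted p = 0.0529). Wild-type Mdm2 was 0.57 ± 0.32 (adjusted p = 0.219) and 0.41 ± 0.32 (adjusted p = 0.434), and with normexp background correction these turned to -0.08 and -0.19.

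Ccng1 read -0.02, 0.01 and 0.14 after 1 week and -0.46, -0.05 and -0.03 after 3 weeks in BRCA1+/-, against -0.26 and -0.95 untreated. Wild-type Ccng1 read -0.37, 0.06 and 0.00 after 1 week and 0.05, -0.11 and 0.28 after 3 weeks, against -0.32 and 0.22 untreated. The wild-type groups overlapped fully. Ccng1, whose promoter holds the site printed above, changed by 0.65 ± 0.28 (adjusted p = 0.175) and 0.42 ± 0.28 (adjusted p = 0.296) in BRCA1+/- and by -0.05 ± 0.28 (adjusted p = 0.912) and 0.12 ± 0.28 (adjusted p = 0.805) in wild type. The 95% intervals of the wild-type changes were -0.64 to 0.54 and -0.47 to 0.72.

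Among the death genes, Pmaip1, a BH3-only protein, read -0.04, -1.15 and -0.77 after 1 week and 0.32, -0.12 and 0.45 after 3 weeks in BRCA1+/-, against -4.08 and -4.11 untreated. Wild-type Pmaip1 read -1.01, -0.46 and -0.61 after 1 week and -0.70, -0.79 and -0.20 after 3 weeks, against -3.30 and -3.72 untreated. It was well above background on all 12 Fe-NTA arrays and on none of the 4 untreated arrays. In BRCA1+/- Pmaip1 was at least 6.11-fold higher at 1 week (adjusted p = 5.55e-05) and at least 11.2-fold higher at 3 weeks (adjusted p = 1.98e-06). Wild-type Pmaip1 was at least 2.41-fold higher at 1 week (adjusted p = 3.51e-05) and at least 2.64-fold higher at 3 weeks (adjusted p = 0.000105). With normexp background correction the changes were under these bounds and not called at 1 week in BRCA1+/- (0.60, adjusted p = 0.0561) or in wild type (0.28, adjusted p = 0.28, and 0.31, adjusted p = 0.222). The bounds follow the detection limit of the untreated arrays, which was higher in wild type (-1.71 and -2.20) than in BRCA1+/- (-3.72 and -2.81).

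Phlda3 read -2.09, -0.85 and -1.58 after 1 week and -1.70, -1.72 and -1.68 after 3 weeks in BRCA1+/-, against -2.82 and -4.001 untreated. Wild-type Phlda3 read -0.67, -1.72 and 0.00 after 1 week and -1.45, -1.91 and -1.22 after 3 weeks, against -3.14 and -3.42 untreated. Fe-NTA and untreated arrays did not overlap, and the probe was well above background on 9 of the 12 Fe-NTA arrays and on no untreated array. Phlda3 was at least 2.47-fold higher at 1 week (adjusted p = 0.0247) and at least 2.17-fold higher at 3 weeks (adjusted p = 0.0248) in BRCA1+/-. Wild-type Phlda3 was at least 2.24-fold higher at 1 week (adjusted p = 0.00129) and at least 1.35-fold higher at 3 weeks (adjusted p = 0.0225). When every dim signal was replaced by its detection limit all 4 calls were lost, with 1.67 (adjusted p = 0.0968) and 1.56 (adjusted p = 0.0763) in BRCA1+/- and 0.89 (adjusted p = 0.309) and 0.32 (adjusted p = 0.771) in wild type. Both wild-type values are under the bounds above, which keep the readings of dim Fe-NTA arrays, so those bounds are not strict. Normexp background correction ended them too, with 0.20 and 0.11 in BRCA1+/- (adjusted p = 0.602 and 0.661) and 0.13 and, turned in sign, -0.13 in wild type (adjusted p = 0.662 and 0.604). Of 80 refits of its calls, 29 lost the call and 1 reversed it.

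Bax, the pore-forming member of the BCL2 family, was above background on every array. The probe used, A_64_P015183, read 2.04, 1.34 and 1.71 after 1 week and 1.90, 1.89 and 2.15 after 3 weeks in BRCA1+/-, against 1.38 and 1.44 untreated. Wild-type Bax read 2.09, 2.50 and 0.88 after 1 week and 4.84, 1.52 and 1.63 after 3 weeks, against 1.62 and 1.52 untreated. The value of 4.84 came from 1 of 2 spots: its scaled log2 signal was 7.74, against 1.95 for the other spot on that array, and the scanner software had not marked it as an outlier. The log2 fold changes were 0.28 ± 0.73 and 0.57 ± 0.73 in BRCA1+/- (adjusted p = 0.865 and 0.595) and 0.26 ± 0.73 and 1.09 ± 0.73 in wild type (adjusted p = 0.834 and 0.346), at 1 and 3 weeks. With the dimmer spot alone, an alternative chosen after seeing the data, the wild-type 3-week change was 0.13 (adjusted p = 0.851). The other changes kept their size, with limma adjusted p = 0.716 and 0.291 in BRCA1+/- and 0.659 at 1 week in wild type. The fit shares 1 spread over the groups, so the bright spot widened the SE of every comparison. Without that spot the other Bax probe would have been the brighter on average. The second Bax probe, A_44_P1164081, ran from 1.24 to 2.08 on the Fe-NTA arrays and from 1.33 to 1.60 on the untreated arrays. It changed by 0.42 and 0.49 in BRCA1+/- (adjusted p = 0.379 and 0.209) and by 0.22 and 0.23 in wild type (adjusted p = 0.591 and 0.604), with an SE of 0.26 in each.

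The stress-response genes went opposite ways. Gdf15 read 1.84, 0.10 and 1.48 after 1 week and 0.61, 2.01 and 0.88 after 3 weeks in BRCA1+/-, against -0.89 and -0.51 untreated. Wild-type Gdf15 read 0.45, 1.12 and 0.46 after 1 week and 1.43, 1.06 and 1.15 after 3 weeks, against -0.20 and -0.96 untreated. Every Fe-NTA array lay above every untreated array of its genotype. Gdf15 rose 3.58-fold (log2 1.84 ± 0.48, adjusted p = 0.0321) and 3.64-fold (1.87 ± 0.48, adjusted p = 0.019) in BRCA1+/-, and 3.46-fold at 3 weeks in wild type (1.79 ± 0.48, adjusted p = 0.0236). At 1 week in wild type it was 1.25 ± 0.48 and missed the threshold (adjusted p = 0.0696). Of 60 refits of its 3 calls, 25 lost the call.

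Sesn2 read 0.35, -0.14 and 0.16 after 1 week and 0.61, 0.20 and 0.34 after 3 weeks in BRCA1+/-, against 1.40 and 1.00 untreated. Wild-type Sesn2 read -0.23, -0.05 and 0.04 after 1 week and 0.07, 0.27 and 1.00 after 3 weeks, against 0.82 and 0.59 untreated. All arrays of both 1-week groups and of the BRCA1+/- 3-week group lay below the untreated arrays of their genotype. Sesn2 fell by 1.08 on the log2 scale at 1 week in BRCA1+/- (SE 0.29, adjusted p = 0.0361), a call kept in 10 of 20 refits. The other changes missed the threshold: -0.82 ± 0.29 at 3 weeks in BRCA1+/- (adjusted p = 0.0683), and -0.79 ± 0.29 (adjusted p = 0.0582) and -0.26 ± 0.29 (adjusted p = 0.601) at 1 and 3 weeks in wild type, the last turning to 0.02 with normexp background correction.

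**Figure D3:**
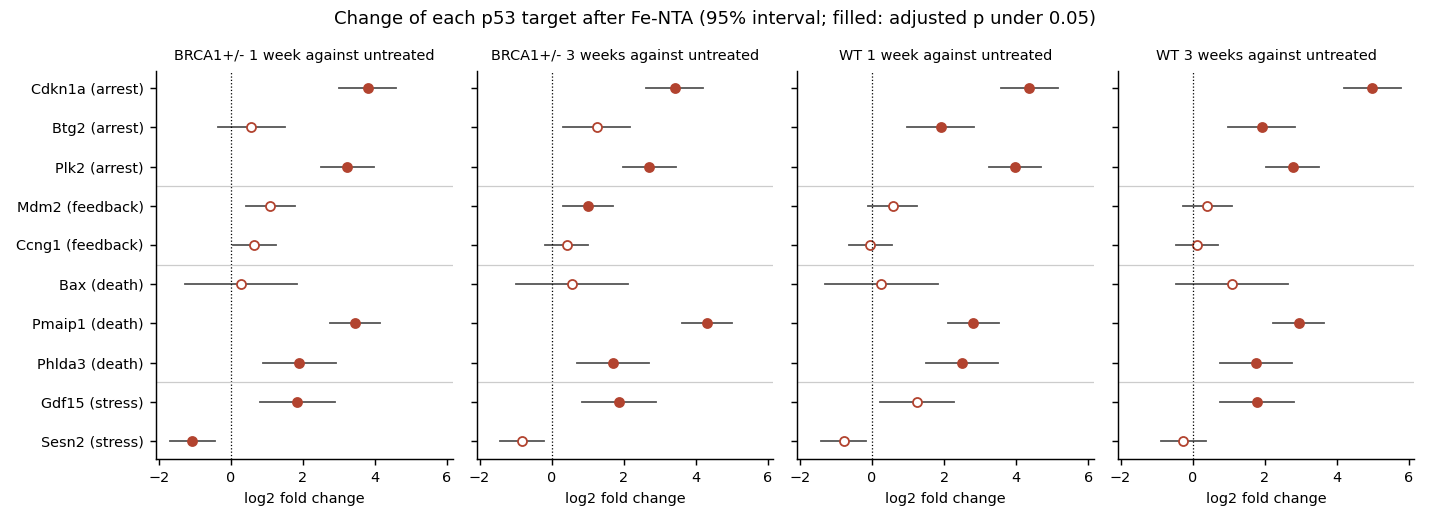
Log2 fold change of each gene after Fe-NTA against untreated cortex of the same genotype (x axis), with 95% intervals, for 1 and 3 weeks in BRCA1+/- and wild type; rows are the 10 genes by role, and filled points have an adjusted p under 0.05. Cdkn1a, Plk2 and Pmaip1 are filled in all 4 panels, Ccng1 and Bax in none, and Sesn2 lies below 0 throughout.

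Set by role, the 3 arrest genes had a median log2 fold change of 3.23 and 2.72 after 1 and 3 weeks in BRCA1+/-, and of 3.97 and 2.77 in wild type. The 5 death and feedback genes had medians of 1.09 and 1.01 in BRCA1+/- and of 0.57 and 1.09 in wild type. The 3 death genes alone had medians of 1.90 and 1.71 in BRCA1+/- and of 2.49 and 1.76 in wild type. Each was the value of Phlda3, which rests on untreated signals below background. Pmaip1 and Phlda3 rose in every comparison and Bax in none. The 2 feedback genes had medians of 0.87 and 0.71 in BRCA1+/- and of 0.26 and 0.27 in wild type. The median over all genes tested lay between -0.03 and 0.01 in these comparisons. The wild-type 3-week median of the death and feedback genes was the value of Bax, and was 0.41 with the dimmer Bax spot. With dim genes at their bound the wild-type arrest medians were 3.75 and 2.77, and the death and feedback medians 0.57 and, at 3 weeks, 0.43. Among the death and feedback genes Pmaip1 was at least 11.2-fold higher at 3 weeks in BRCA1+/-, beside 10.7-fold for Cdkn1a and 6.57-fold for Plk2. These medians describe a chosen set and were not tested.

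Between 3 weeks and 1 week of Fe-NTA, 1 of the 10 genes was called in wild type, where 8.33% of all genes were (5.55% higher and 2.78% lower), and 0 of 10 in BRCA1+/-, where 0.306% were (0.187% higher and 0.119% lower). Plk2 fell by 1.20 on the log2 scale in wild type (SE 0.31, limma, adjusted p = 0.0252), and the 3 arrays at 3 weeks all lay below the 3 at 1 week. This call was lost in 8 of 21 refits, among them the fit to the compared groups alone (adjusted p = 0.0877) and the fit without the third 1-week array (-0.96, adjusted p = 0.0736). In BRCA1+/- Plk2 changed by -0.51 ± 0.31 (adjusted p = 0.484), again with no overlap. The gene with an unadjusted p under 0.05 in BRCA1+/- was Pmaip1, at 0.87 ± 0.29 (adjusted p = 0.268). Cdkn1a changed by -0.38 ± 0.33 in BRCA1+/- (95% interval -1.09 to 0.34, adjusted p = 0.594) and by 0.62 ± 0.33 in wild type (-0.09 to 1.33, adjusted p = 0.273).

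Mki67, which encodes the Ki-67 protein of cycling cells, read 1.23, 0.33 and 1.95 after 1 week and -0.53, -1.29 and -1.06 after 3 weeks in BRCA1+/-, against -1.31 and -1.38 untreated. Wild-type Mki67 read 1.74, 2.69 and 1.48 after 1 week and -0.87, -0.33 and -0.37 after 3 weeks, against -0.95 and -1.08 untreated. Mki67 rose by 2.52 ± 0.43 (adjusted p = 0.00285) at 1 week in BRCA1+/- and by 2.98 ± 0.43 (adjusted p = 0.000166) in wild type. At 3 weeks it was at 0.38 ± 0.43 (adjusted p = 0.541) in BRCA1+/- and 0.49 ± 0.43 (adjusted p = 0.486) in wild type against untreated cortex. From 1 to 3 weeks it fell by 2.13 ± 0.39 in BRCA1+/- (adjusted p = 0.0339) and by 2.49 ± 0.39 in wild type (adjusted p = 0.00203). The 4 Mki67 probes were all higher in group mean at 1 week than at 3 weeks. At 3 weeks every wild-type array lay above every untreated wild-type array on each probe. In BRCA1+/- this held on the probe used and on A_42_P576823, and not on A_44_P1112631 or A_44_P510940. The gap differed in size between probes. On A_42_P576823, not used above, the 3-week arrays ran from -0.86 to -0.69 in BRCA1+/-, against -2.43 and -1.79 untreated, and from -1.24 to -0.26 in wild type, against -2.42 and -2.13 untreated, with no overlap; this probe was not tested on its own. On the probe used, high Cdkn1a stood beside high Mki67 at 1 week and beside Mki67 that was not called different from untreated cortex at 3 weeks. Whether the 2 signals come from the same cells was not tested.

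**Figure D4:**
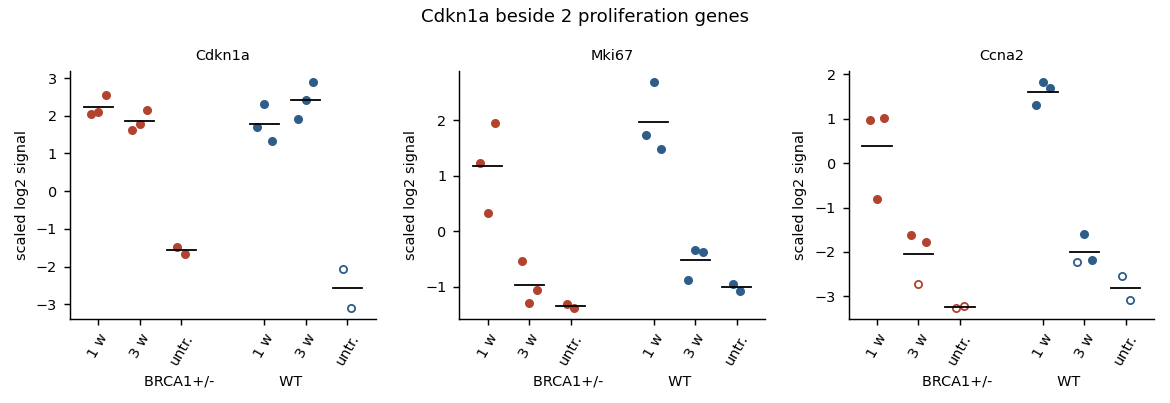
Log2 signal relative to the array's 75th percentile (y axis) of Cdkn1a, Mki67 and the S-phase cyclin Ccna2 in the Fe-NTA (1 w, 3 w) and untreated (untr.) arrays of BRCA1+/- (red) and wild-type (blue) rats; points are arrays, open where not well above background, and bars are means. Cdkn1a stays high at 3 weeks, while Mki67 and Ccna2 are high at 1 week and lower at 3 weeks.

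Between the genotypes, 0 of the 10 genes were called in untreated cortex, after 1 week or after 3 weeks, by limma. The background was 0, 0.562 and 0% of all genes in these comparisons (at 1 week 0.493% higher and 0.0686% lower), and 2, 0 and 2 of the 10 genes had an unadjusted p under 0.05. In untreated cortex these were Cdkn1a, at least 1.31-fold higher in BRCA1+/- than in wild type on the probe used, and Btg2, at 1.13 ± 0.48 (both adjusted p = 0.999). The second Cdkn1a probe, below background on all untreated arrays, pointed the other way (-1.26 ± 0.47, adjusted p = 0.905). At 3 weeks they were Mdm2, at 0.65 ± 0.29, and Pmaip1, at 0.78 ± 0.29 (both adjusted p = 0.81). Whether the Fe-NTA response itself differed between genotypes was tested as an interaction, which called 0 of 10 genes and 0% of all genes at either time. At 3 weeks 2 of the 10 genes had an unadjusted p under 0.05. The Cdkn1a response differed by -1.56 ± 0.53 in BRCA1+/- on the probe used (95% interval -2.69 to -0.44, adjusted p = 0.971), and by 0.18 ± 0.61 on the second probe (adjusted p = 0.988). That of Pmaip1 was larger by 1.37 ± 0.47 (interval 0.37 to 2.36, adjusted p = 0.971). These fitted sizes rest on untreated signals below background, in wild type for Cdkn1a and in both genotypes for Pmaip1 and the second Cdkn1a probe. At 1 week the 1 gene with an unadjusted p under 0.05 was Btg2, at -1.34 ± 0.62 (adjusted p = 0.643).

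By level, Cdkn1a on the probe used was ordered as wild type 3 weeks (2.41 ± 0.49 SD), BRCA1+/- 1 week (2.23 ± 0.27), BRCA1+/- 3 weeks (1.85 ± 0.26), wild type 1 week (1.79 ± 0.49), BRCA1+/- untreated (-1.57 ± 0.13) and wild type untreated (-2.57 ± 0.73, not well above background). The arrays of neighbouring groups overlapped among the 4 Fe-NTA groups, and none of the 4 differences tested among them was called. The second probe gave another order: BRCA1+/- 3 weeks was the lowest Fe-NTA group (-2.12 ± 0.50), below BRCA1+/- 1 week (-1.01 ± 0.81), wild type 1 week (-1.05 ± 0.53) and wild type 3 weeks (-1.04 ± 0.18). Mdm2 was ordered as BRCA1+/- 1 week (-0.88 ± 0.21), BRCA1+/- 3 weeks (-0.96 ± 0.37), wild type 1 week (-1.45 ± 0.10), wild type 3 weeks (-1.61 ± 0.36), BRCA1+/- untreated (-1.97 ± 0.70) and wild type untreated (-2.02 ± 0.19). Its BRCA1+/- and wild-type 1-week arrays did not overlap, but their difference of 0.57 (95% interval -0.04 to 1.19) was not called. Sesn2 was ordered the other way, with BRCA1+/- untreated highest (1.20 ± 0.29) and wild type 1 week lowest (-0.08 ± 0.14). Over the 16 arrays, of 11412 other genes with a plain symbol, Capg, Fgb and Adora1 had the centred log2 pattern closest to Cdkn1a, with a mean absolute difference of 0.53, 0.58 and 0.59. Those closest to Mdm2 were Hdgfl3, Aqr and Rab12, between 0.22 and 0.23, and those closest to Bax were Frmd8, Disc1 and Map2k3, between 0.31 and 0.32.

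Mdm4, the partner of Mdm2 in holding p53 back, lay between -0.10 and 0.29 in all 4 comparisons on the probe used, none called. Its probes disagreed at 3 weeks in BRCA1+/-: A_43_P17202 averaged -0.44 ± 0.23, against 0.04 ± 0.31 untreated, and A_44_P1148522 averaged -1.40 ± 0.31, against -0.89 ± 0.31 untreated. Among the regulators of p53, Kat5, an acetyltransferase, was called at -0.75 ± 0.24 at 3 weeks in BRCA1+/- (adjusted p = 0.0482).

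Of 36 other p53 targets, 29 were tested. In BRCA1+/- 2 rose at 1 week, and 7 rose and 2 fell at 3 weeks, with medians of 0.00 and -0.07. In wild type 6 rose and 5 fell at 1 week and 4 rose at 3 weeks, with medians of -0.07 and 0.15. The shares that rose were 6.9% and 24.1% in BRCA1+/-, beside 4.25% and 9.37% of all genes, and 20.7% and 13.8% in wild type, beside 12.8% and 8.77%. The shares that fell were 0% and 6.9% in BRCA1+/-, beside 3.2% and 6.52% of all genes, and 17.2% and 0% in wild type, beside 14.3% and 5.53%. Those that rose with the smallest p included death genes. Bbc3 (PUMA) was at 2.15 ± 0.65 and 3.09 ± 0.65 after 1 and 3 weeks in BRCA1+/- (adjusted p = 0.0579 and 0.00601), and at least 4.19-fold and 4.20-fold higher in wild type (adjusted p = 0.00942 and 0.0182). The death receptor Fas was at least 3.04-fold and 2.20-fold higher in BRCA1+/- (adjusted p = 0.00223 and 0.00428) and at least 1.96-fold higher at 1 week in wild type (adjusted p = 0.00728). Apaf1, the apoptosome scaffold, rose by 1.43 ± 0.37 and 1.98 ± 0.37 in BRCA1+/- and by 1.71 ± 0.37 at 1 week in wild type (adjusted p = 0.0299, 0.00297 and 0.00331). Thbs1, thrombospondin, rose by 1.83 ± 0.24 at 3 weeks in BRCA1+/- (adjusted p = 0.000263) and by 0.89 ± 0.24 in wild type (adjusted p = 0.0251). Perp and Hexim1 fell by 1.33 ± 0.31 and 1.14 ± 0.29 at 1 week in wild type (adjusted p = 0.00564 and 0.00966), and Tgfa and Xpc fell by 0.85 ± 0.25 and 0.76 ± 0.23 at 3 weeks in BRCA1+/- (adjusted p = 0.0297 and 0.0392). Several of these genes also answer to pathways other than p53.

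**Figure D5:**
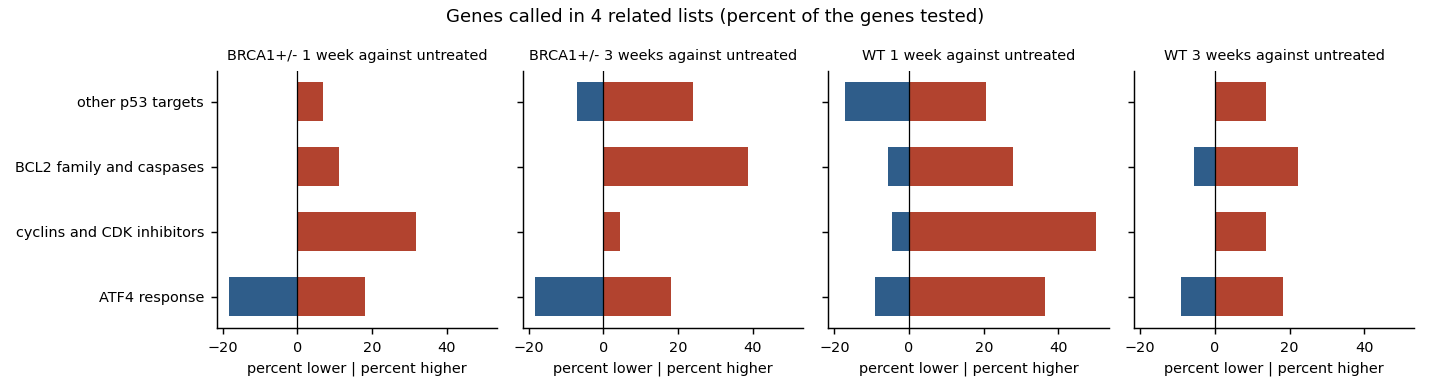
Percent of the tested genes of 4 related lists that were called higher (red, right of 0) or lower (blue, left of 0) after Fe-NTA against untreated cortex (x axis), for BRCA1+/- and wild type at 1 and 3 weeks. The cyclin list has the longest red bars at 1 week (7 of 22 genes in BRCA1+/- and 11 of 22 in wild type), and the BCL2 and caspase list the longest at 3 weeks (7 of 18 and 4 of 18).

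Among 18 tested BCL2 family members and caspases, 2 rose at 1 week and 7 at 3 weeks in BRCA1+/-, with medians of 0.33 and 0.53. In wild type 5 rose and 1 fell at 1 week and 4 rose and 1 fell at 3 weeks, with medians of 0.50 and 0.63. The shares that rose were 11.1% and 38.9% in BRCA1+/-, beside 4.25% and 9.37% of all genes, and 27.8% and 22.2% in wild type, beside 12.8% and 8.77%. At both times 0% fell in BRCA1+/-, beside 3.2% and 6.52% of all genes. In wild type 5.56% fell at both times, beside 14.3% and 5.53%. Bak1, the pore-forming partner of Bax, read 2.85, 2.47 and 2.93 after 1 week and 3.02, 3.09 and 3.13 after 3 weeks in BRCA1+/-, against 1.25 and 1.29 untreated. It rose by 1.48 ± 0.29 and 1.81 ± 0.29 in BRCA1+/- (adjusted p = 0.00661 and 0.000952) and by 1.54 ± 0.29 and 1.63 ± 0.29 in wild type (adjusted p = 0.0012 and 0.00202), whereas neither Bax probe was called. Casp8, the caspase of death receptors, rose by 1.76 ± 0.47 at 3 weeks in BRCA1+/- (adjusted p = 0.023). Cycs, cytochrome c, fell by 2.06 ± 0.45 and 1.41 ± 0.45 in wild type (adjusted p = 0.00355 and 0.0491).

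Of 22 tested cyclins, cyclin-dependent kinases, inhibitors and related cell-cycle genes, 7 rose at 1 week and 1 at 3 weeks in BRCA1+/-, with medians of 0.52 and 0.39. In wild type 11 rose and 1 fell at 1 week and 3 rose at 3 weeks, with medians of 0.85 and 0.30. Shares of 31.8% and 4.55% rose in BRCA1+/-, beside 4.25% and 9.37% of all genes, and 50% and 13.6% in wild type, beside 12.8% and 8.77%, so that the 3-week share in BRCA1+/- was below that of all genes. At 1 week 4.55% fell in wild type, beside 14.3% of all genes, and 0% in BRCA1+/-, beside 3.2%. At 3 weeks 0% fell in either genotype, beside 6.52% of all genes in BRCA1+/- and 5.53% in wild type. The mitotic kinase Cdk1 rose by 3.39 ± 0.38 at 1 week in BRCA1+/- (adjusted p = 0.000153) and was at least 17.3-fold higher in wild type (adjusted p = 3.84e-06). Ccna2 was at least 10.7-fold and at least 11.8-fold higher at 1 week in BRCA1+/- and wild type (adjusted p = 0.000512 and 1.88e-05). The G1/S cyclin Ccne1 was at least 2.91-fold higher at 3 weeks in BRCA1+/- (adjusted p = 0.0047), the one call of this list there. Cdk6, a G1 kinase, was at least 2.29-fold higher at 3 weeks in wild type (adjusted p = 0.00326), and the pocket protein gene Rbl2 fell by 0.87 ± 0.31 at 1 week in wild type (adjusted p = 0.0482). Of 11 tested genes of the ATF4 response, which shares Sesn2 and Gdf15 among its known targets, 2 rose and 2 fell at each time in BRCA1+/-; in wild type 4 rose and 1 fell at 1 week and 2 rose and 1 fell at 3 weeks. The shares that rose were 18.2% at both times in BRCA1+/-, beside 4.25% and 9.37% of all genes. In wild type they were 36.4% and 18.2%, beside 12.8% and 8.77%. The shares that fell were 18.2% at both times in BRCA1+/-, beside 3.2% and 6.52% of all genes. In wild type 9.09% fell at both times, beside 14.3% and 5.53%. Atf3, an ATF4-induced factor, rose by 3.13 ± 0.40 and 4.32 ± 0.40 in BRCA1+/- (adjusted p = 0.000388 and 1.24e-05) and was at least 7.58-fold and 5.05-fold higher in wild type (adjusted p = 6.09e-06 and 7.3e-05). The asparagine synthetase gene Asns rose by 1.60 ± 0.35 and 1.69 ± 0.35 in BRCA1+/- (adjusted p = 0.0134 and 0.00581) and by 2.21 ± 0.35 and 1.59 ± 0.35 in wild type (adjusted p = 0.000359 and 0.00829). Psat1, of serine synthesis, fell by 1.69 ± 0.44 and 2.06 ± 0.44 in BRCA1+/- (adjusted p = 0.03 and 0.00638) and by 2.02 ± 0.44 and 1.87 ± 0.44 in wild type (adjusted p = 0.00321 and 0.0109). The lipoprotein receptor gene Vldlr fell by 1.06 ± 0.28 and 0.87 ± 0.28 in BRCA1+/- (adjusted p = 0.034 and 0.0487).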

How the data were processed

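Total RNA from kidney cortex was labelled with Cy3 and hybridised to 16 single-colour Agilent rat arrays, 62976 spots each. The deposited files hold the processed intensity and mean signal of every spot; they were extracted with Agilent Feature Extraction 10.7, per the submitters' processing notes. A value table of the deposited log2 signals differs from the scaled signals used here by a constant per array only. For each array, log2 of the processed intensity minus the 75th percentile over non-control probes was averaged over spots, leaving out outlier spots. A probe counted as well above background on an array if at least 0.5 of its spots did, was kept if it was so on every array of at least 1 group, and a gene was read from its brightest kept probe. This left 16024 genes, of which 11413 had a plain symbol (2233 probes named by accession were renamed through the RefSeq table). No spot was saturated, and the number of arrays limits the precision. The 75th percentile of the processed intensity ran from 20.1 to 78.5. limma 3.58.1 in R 4.3.3 fitted 1 mean for each of 6 groups over all 16 arrays (10 residual degrees of freedom, median residual SD 0.40), with 2-sided tests and Benjamini-Hochberg adjustment over all genes for each of 11 comparisons. In a simulation of the wild-type 1-week comparison over 16024 genes, with 50 changed genes per size, the test recovered 20% of genes changed by 1 log2 unit, 78% at 2, 88% at 3 and 100% at 4; 9 of its 152 calls were false. It changed 200 genes, where the comparison itself called 4343. The adjusted p depends on how many genes change, so these shares need not hold for that comparison.

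Promoter motifs were searched in 33469 RefSeq promoters of 300 bases on both strands. The genes and lists were chosen with earlier results of these data known. Named genes were the 10 members, Mdm4 and Mki67, and, from each of 5 related lists in each comparison with untreated cortex, the 2 called genes with the smallest p in each direction; a few of these are left out of the text. Same-numbered samples did not deviate together (r from -0.34 to 0.45, over 0.1 in 8 of 36 pairs), so replicate numbers were not used as a block. The 2 array slides each held all 6 groups and were tried as a block and separately. Other alternatives were the filter, background correction, scaling, probe choice, array weights, the arrays fitted and leaving out each array.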

Additional observations from a re-analysis of the deposited data

How the results depend on the processing

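Over the alternatives the number of the 10 genes called ran from 1 to 7 in BRCA1+/- at 1 week, 2 to 8 in BRCA1+/- at 3 weeks, 2 to 7 in wild type at 1 week and 0 to 6 in wild type at 3 weeks. In that order the counts were 6, 6, 5 and 6 as reported. In BRCA1+/- at 1 week they were 3 without the filter, 2 with normexp, 3 with only the compared groups fitted, 3 in slide 1 and 1 in slide 2. In BRCA1+/- at 3 weeks they were 3 without the filter, 3 with normexp, 3 in slide 1 and 2 in slide 2. In wild type at 1 week they were 2 with normexp and 2 in slide 2, and at 3 weeks 2 with normexp, 3 in slide 1 and 0 in slide 2. A single slide holds fewer arrays. Normexp was run with an offset of 50, where the arrays' 75th percentile of the processed intensity ran from 20.1 to 78.5. The part of this offset in the lost calls was not tested. Leaving out 1 array at a time gave 3 to 6 in BRCA1+/- at both times, 4 to 6 in wild type at 1 week and 3 to 6 in wild type at 3 weeks. The count of 3 came without the second untreated array in each of these except wild type at 1 week, and also without the third 1-week array in BRCA1+/-. For wild type at 3 weeks against 1 week the count was 1, and 0 without the filter, with only the compared groups fitted and in either slide, with 0 to 1 on leaving out an array (0 without the third 1-week array or any 3-week array). The other 6 comparisons called 0 of the 10 genes under every alternative run. Under normexp at 3 weeks in wild type the called Phlda3 (-0.13) and Ccne1 (-0.0768) reversed, and the uncalled Mdm2 (-0.19) and Sesn2 (0.02) changed sign, as did the uncalled Mdm2 at 1 week (-0.08).

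With the replicate number as a block, 5 and 7 of the 10 genes were called in BRCA1+/- at 1 and 3 weeks and 6 and 6 in wild type; 1 was called between the times in wild type and 0 elsewhere. Gdf15 at 1 week in BRCA1+/- was then at 1.87 (adjusted p = 0.0562). The numbers do not pair the samples. With the slide as a block the counts were those reported.

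Scaling to the 75th percentile over probes detected on all arrays moved the share of higher genes among all calls to 68.6%, against 57.1% as reported, in BRCA1+/- at 1 week, to 61.7% against 47.3% in wild type at 1 week, to 72.2% against 61.3% in wild type at 3 weeks and to 45.8% against 61.2% between the times in BRCA1+/-. It moved the median of all genes to 0.19 in wild type at 1 week, where Ccng1 turned to 0.16. Counts over all genes ranged over the alternatives from 28 to 2829 in BRCA1+/- at 1 week, 254 to 6193 in BRCA1+/- at 3 weeks, 215 to 5750 in wild type at 1 week and 3 to 5585 in wild type at 3 weeks, with 1193, 2546, 4343 and 2291 as reported. Between the times they ran from 0 to 773 in BRCA1+/- (49 as reported) and from 0 to 2468 in wild type (1334 as reported). Without the third wild-type 1-week array, 4 genes were called between genotypes at 1 week, against 90 as reported. With 2 untreated arrays per genotype, often below background, changes of Pmaip1, Phlda3 and wild-type Cdkn1a and Plk2 are bounds.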
